A study of Fragaria vesca with 9 samples.

Results

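Among the 34777 genes listed for fruit of woodland strawberry, Fragaria vesca, 74 were described as beta-1,3-glucanases. They are the genes whose description contains the enzyme name glucan endo-1,3-beta-glucosidase or the Pfam domain PF00332, glycosyl hydrolase family 17. Family 17 was listed in 55 of the 74, 26 of them with an X8 domain and 29 without. Another 11 carried X8 without family 17, 5 carried a thaumatin domain (PF00314) and 3 carried no listed domain. The label was therefore borne out by the catalytic domain in 55 genes, and the other 19 carried the enzyme name only. Of the 55, FvH4_1g08510 is listed as 12-oxophytodienoate reductase 3, FvH4_4g19500 as lichenase, and FvH4_3g05400 has no protein match. Names such as glucanase 13 are those of the closest Swiss-Prot protein, mostly from Arabidopsis thaliana, and are not functions shown in strawberry.

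Beta-1,3-glucanases cut callose, the beta-1,3-glucan that plants lay down in the neck of plasmodesmata, on sieve plates, around young pollen and at sites of infection. Callose synthases make this polymer, and the X8 domain binds it. Many plant glucanases with an X8 domain sit at the cell wall or plasma membrane. Acidic and basic glucanases without X8 include the pathogenesis-related proteins of group PR-2, which also cut fungal walls, and which in fleshy fruits are often found beside thaumatin-like proteins of group PR-5.

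RNA with poly(A) tails was sequenced from whole fruit at 26 days after anthesis in 3 groups of 3 libraries. These were the mutant line Fvmate51-2 (line 2), the mutant line Fvmate51-1 (line 1), and the wild type. Both lines are mutants of FvMATE51, which the study calls a protein of the vacuolar membrane, and the study compared each with the wild type. The sources used here do not give the kind of mutation, whether a line descends from 1 plant, or whether replicates were separate plants. The p-values therefore measure the spread between these libraries, which may be technical. No gene description contained MATE51 (0 of 34777), so the level of the mutated gene is not analysed here.

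The deposited values are FPKM, reads scaled to gene length and library size, so levels can be compared between genes. Listed genes held 31587667 to 51649115 reads per library, and reads outside listed genes made up 0.0990% to 10.1%, with line 1 replicate 2 the highest. Wild type replicate 3 and line 1 replicate 2 stood apart from the other replicates of their groups. Their mean chi-square per gene against those replicates was 49.0 to 55.0 and 25.2 to 31.0, while all other replicate pairs lay between 4.38 and 9.09. Values below are FPKM, group values are mean ± SD over 3 libraries, and differences are in log2(FPKM + 1) ± SE, which makes them smaller than the fold of mean FPKM for genes near 0. Genes were called at an adjusted p under 0.05 in limma with Benjamini-Hochberg adjustment over 15890 tested genes.

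Most of the family was silent or nearly so in these fruits. Only 28 of the 74 genes reached 1 FPKM in at least 3 libraries and were tested: 15 with family 17 and X8, 8 with family 17 alone, 2 with X8 alone and 3 with neither. Of the other 46, 14 were at 0 in all 9 libraries and 32 had some reads, with no single value above 1.08 FPKM. The silent genes included 3 of the 4 matches of A6, a callose-cutting enzyme of the anther tapetum in Arabidopsis, and the match of the tobacco acidic isoform PR-Q'. Mean levels of at least 10 FPKM were found for 9 genes and of at least 30 FPKM for 4. FvH4_6g24670 and FvH4_6g08400 reached 1 FPKM only in line 1 libraries, so they entered the test through the group where they were high and had to differ.

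**Figure D1:**
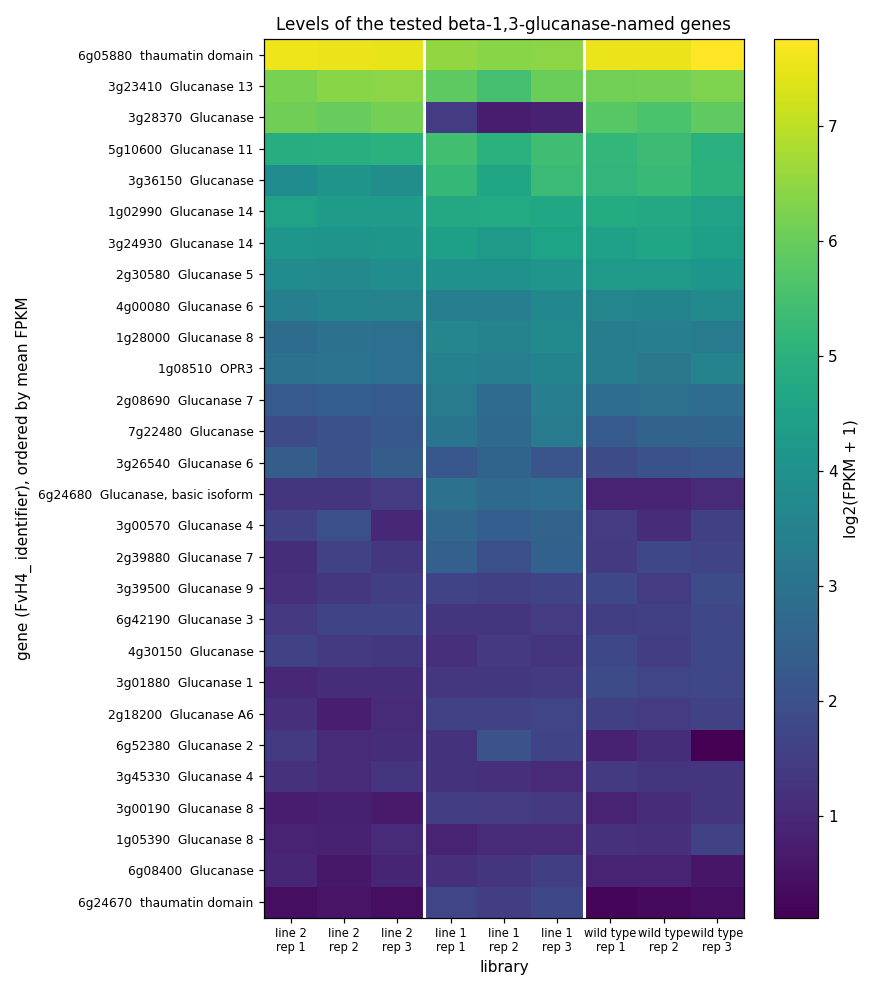
Level of the 28 tested genes in each library, as log2(FPKM + 1) by colour, with genes ordered from the highest mean at the top and libraries grouped as line 2, line 1 and wild type. FvH4_3g28370 is dark in line 1, at 0.635 to 1.74 FPKM, beside 61.8 to 71.1 FPKM in line 2 and 47.5 to 58.8 FPKM in the wild type.

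In line 1 the family 17 gene FvH4_3g28370 fell 51.1-fold and the thaumatin-domain gene FvH4_6g05880 fell 2.24-fold relative to the wild type, while the basic isoform FvH4_6g24680 rose 7.08-fold and the X8 gene FvH4_3g00570 rose 2.96-fold. In line 2, 8 of the 15 tested family 17 genes with X8 were called lower, such as FvH4_3g36150 (2.41-fold) and FvH4_3g01880 (2.22-fold). Of the 8 tested family 17 genes without X8, 3 were called lower there. Over the 28 tested genes in line 2, 1 gene was called higher and 11 lower, which is 3.57% and 39.3% of them, while over all tested genes 15.3% were called higher and 15.1% lower (30.4% in either direction). In line 1, 9 were called higher and 5 lower, or 32.1% and 17.9%, beside 16.5% higher and 19% lower over all tested genes (35.5% in either direction). The median difference was -0.25 in line 2 and 0.08 in line 1, beside 0.02 and -0.01 over all tested genes in the same order. All 11 lower calls in line 2 carried family 17, and 8 of them were among the 15 genes with X8, of which 0 were higher by limma. In line 1, 5 of the 23 tested genes with family 17 were called higher and 4 lower. All 3 line 2 libraries lay above the wild type for 2 genes and below it for 14, beside 25.9% and 23.8% of all tested genes, and all 3 line 1 libraries lay above it for 9 and below it for 9, beside 22.4% and 24.6%. The 2 comparisons share their wild type libraries, and 2 of the 9 higher calls in line 1 are genes that entered through line 1, without which 7 of 26 were higher there, or 26.9%. In whole fruit, fewer cells of a type and less RNA per cell cannot be told apart.

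The line 1 count depended on single libraries. It was 8 calls without line 1 replicate 1 and 7 without line 1 replicate 3, against 14 with all libraries, and the higher calls fell to 5 and 3 of them. Both settings also dropped 2 of the 28 genes from the test. Over all tested genes, the share called in line 1 fell as well, from 35.5% to 25.9% and 26.2% in the same order. When a mean of at least 5 FPKM was required, 12 of the genes were tested, with 1 higher and 3 lower in line 1. Over all genes at that limit, 37.2% were called in line 1, and 42.8% of those calls were higher. Rescaling to TPM moved the line 1 split to 9 higher and 3 lower, and raised the share of higher genes among all calls in line 1 to 61.8%, against 46.4% without it. The line 2 split was 1 higher and 10 lower with it. Without wild type replicate 3 and line 1 replicate 2 together, line 2 had 1 higher and 11 lower calls, and line 1 had 8 higher and 3 lower. Over all genes tested in that setting, 35.8% were called in line 2 and 37.1% in line 1.

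The lines were compared with each other directly. In line 2, 3 of the 28 genes were higher and 16 lower than in line 1, or 10.7% and 57.1%, beside 15.4% and 12.2% of all tested genes (27.6% in either direction). The 16 include FvH4_6g24670 and FvH4_6g08400, which entered the test through line 1, and without these 2 genes 3 were higher and 14 lower of 26, or 11.5% and 53.8%. The median difference over the 28 was -0.36 beside 0.01 over all tested genes. All line 2 libraries lay above all line 1 libraries for 3 genes and below them for 17, beside 25.1% and 21.1% of all tested genes. Of the 19 calls, 14 were kept under every alternative. With rescaling to TPM 3 were higher and 17 lower, while the share of higher genes among all calls was 40.5% with it and 55.9% without. The 3 higher genes were FvH4_6g05880, FvH4_3g28370 and FvH4_3g23410, the 3 most abundant of the 74. The calls for FvH4_1g02990, FvH4_3g24930, FvH4_2g30580, FvH4_3g01880 and FvH4_6g08400 were the 5 not kept, with adjusted p up to 0.0642, 0.124, 0.114, 0.157 and 0.101. Each of these was lost without at least 1 single line 2 library, those for FvH4_3g24930, FvH4_2g30580 and FvH4_3g01880 also without line 1 replicate 1 or 3, and that for FvH4_3g01880 also without line 1 replicate 2 or wild type replicate 1 or 2. Without wild type replicate 3 and line 1 replicate 2 together, 3 were higher and 14 lower, beside 37.7% of all tested genes in either direction.

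**Figure D2:**
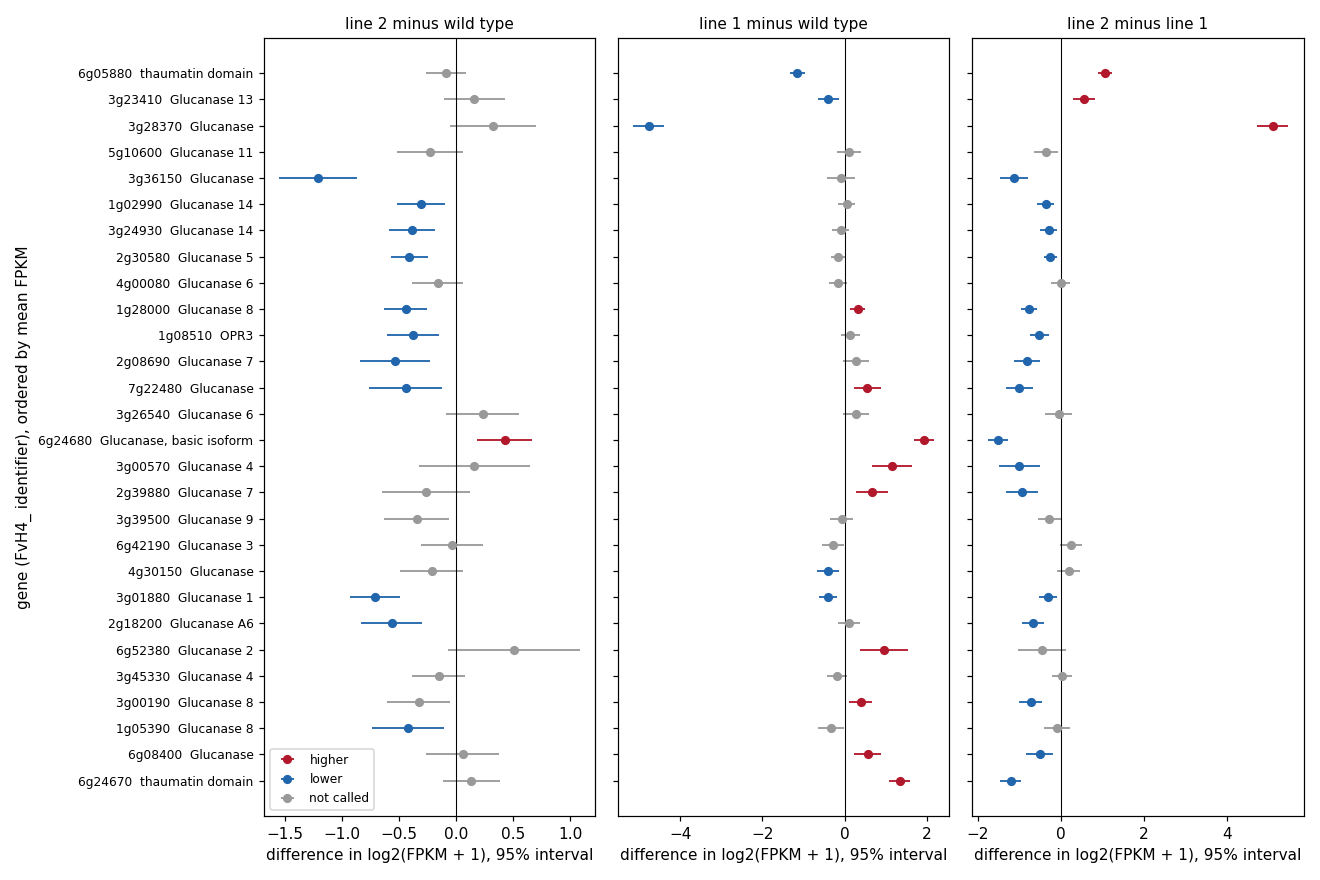
Difference in log2(FPKM + 1) with its 95% interval for each of the 28 tested genes, for line 2 minus wild type, line 1 minus wild type and line 2 minus line 1, with genes called higher in red, lower in blue and not called in grey. The left panel has 11 lower, 1 higher and 16 not called, and the middle panel 9 higher, 5 lower and 14 not called. The right panel has 16 lower, 3 higher and 9 not called. The horizontal scales differ between panels.

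The mean of both lines gave 4 genes higher and 8 lower than the wild type among the 28, or 14.3% and 28.6%, beside 16.8% and 18.1% of all tested genes (34.9% in either direction). Only 1 of the 28 had all 6 mutant libraries above the wild type and 4 had all 6 below, beside 11.9% and 12.4% of all tested genes. FvH4_6g05880, FvH4_3g28370 and FvH4_3g36150 were called lower in this mean (limma adjusted p = 8.33e-05, 1.77e-06 and 0.00413), but each was called against the wild type in 1 line only, and the lines differed from each other for all 3. Of the 12 calls, 7 were kept under every alternative. The 5 others, FvH4_3g24930, FvH4_3g00570, FvH4_4g30150, FvH4_6g52380 and FvH4_1g05390, were less stable. Without wild type replicate 2 the adjusted p was 0.154 for FvH4_3g24930 and 0.0928 for FvH4_3g00570, and without wild type replicate 3 it was 0.139, 0.129 and 0.159 for the other 3. All but FvH4_3g00570 were also lost without at least 1 mutant library. Without wild type replicate 3 and line 1 replicate 2 together, 2 were higher and 7 lower, beside 36.1% of all tested genes in either direction.

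The gene with the highest level lists no family 17 domain. FvH4_6g05880 (chromosome 6, 3343580 to 3344726, plus strand) bears the glucanase name of a sweet cherry protein but lists only the thaumatin domain of PR-5 proteins. It had 189, 184 and 175 FPKM in line 2, 91.3, 83.4 and 85.8 FPKM in line 1, and 183, 184 and 215 FPKM in the wild type. All 3 line 1 libraries lay below all others, and line 2 overlapped the wild type. The level in line 1 was 2.24-fold lower than in the wild type (difference -1.15 ± 0.08, limma adjusted p = 2.27e-06). Line 2 was 2.10-fold above line 1 (1.06 ± 0.08, adjusted p = 3.85e-06). Line 2 against the wild type gave -0.09, with a 95% interval of -0.26 to 0.09 (adjusted p = 0.425).

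Because of this gene, sums over the 74 depended on which genes were included. The summed level was 479 ± 2.10 FPKM in line 2, 367 ± 35.3 FPKM in line 1 and 522 ± 18.9 FPKM in the wild type, and FvH4_6g05880 made up 38.1%, 23.6% and 37.2% of it in the same order. Over the 55 genes with family 17, the sum was 291 ± 9.81 FPKM in line 2, 268 ± 33.1 FPKM in line 1 and 324 ± 1.63 FPKM in the wild type. Line 1 libraries spanned 231 to 295 FPKM on this sum and overlapped the 283 to 302 FPKM of line 2, while the wild type, at 322 to 325 FPKM, lay above both. Without FvH4_3g28370, described next, the family 17 sum was 224 ± 7.83 FPKM in line 2, 267 ± 32.9 FPKM in line 1 and 271 ± 5.74 FPKM in the wild type. On that sum line 2, at 215 to 231 FPKM, reached the lowest line 1 library, line 1 replicate 2 at 230.5 FPKM, and lay below the wild type libraries. These sums were not tested.

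**Figure D3:**
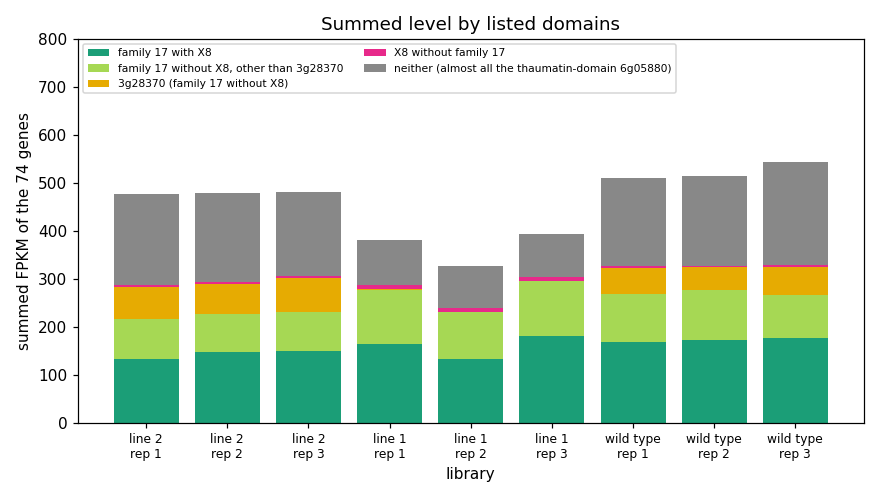
Summed FPKM of the 74 genes in each library, stacked by listed domains, with line 2 at the left, line 1 in the middle and wild type at the right. The grey block of genes with neither domain averages 184 FPKM in line 2, 91.3 FPKM in line 1 and 195 FPKM in the wild type, and FvH4_3g28370 is nearly missing from line 1.

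FvH4_3g28370 (chromosome 3, 21335104 to 21337223, plus strand) was the most abundant of the genes with family 17 but no X8, the layout of PR-2 enzymes. Its closest match is a grapevine glucanase. It had 67.3, 61.8 and 71.1 FPKM in line 2, 1.74, 0.635 and 0.755 FPKM in line 1, and 53.8, 47.5 and 58.8 FPKM in the wild type. The line 1 libraries lay far below the other 6, and the 3 line 2 libraries lay above the 3 of the wild type. Line 1 was 51.1-fold below the wild type (-4.77 ± 0.17, limma adjusted p = 1.58e-08), and line 2 was 63.9-fold above line 1 (5.09 ± 0.17, adjusted p = 8.3e-09). Line 2 was 1.25-fold above the wild type, which did not pass the test (0.32, 95% interval -0.06 to 0.70, adjusted p = 0.176). It passed only when line 1 replicate 1 was left out of the shared estimate of spread (adjusted p = 0.0349, against 0.0349 to 0.387 over all alternatives).

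Genes around it differed far less in line 1. Of the 7 listed genes on each side of FvH4_3g28370, 8 were tested, and their differences between line 1 and the wild type lay between -0.58 and 0.43. Of these, 3 were called lower and 1 higher, beside 19% and 16.5% of all tested genes. The gene called higher reached 1 FPKM only in line 1 libraries, so it entered the test through line 1 and had to differ. FvH4_3g28380 also entered through line 1 and was not called against the wild type. The next glucanase downstream, FvH4_3g28390, starts 11096 bases after its end and has the same grapevine match. It was too low to test, with 4, 0 and 6 reads in line 2, 0 in each line 1 library, and 8, 6 and 10 reads in the wild type. Whether the sequence of FvH4_3g28370 differs in line 1 was not tested.

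The other grapevine match of this layout, FvH4_4g30150 on chromosome 4, had 2.08, 1.65 and 1.53 FPKM in line 2, 1.21, 1.60 and 1.45 FPKM in line 1, and 2.39, 1.82 and 2.39 FPKM in the wild type. Line 1 lay below the wild type in all libraries (-0.40 ± 0.12, limma adjusted p = 0.0277) and line 2 overlapped both groups. Without line 1 replicate 1 or 3 or wild type replicate 1 or 3 the call was lost, with adjusted p between 0.0624 and 0.0989 (0.0199 to 0.0989 over all alternatives).

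A basic isoform went the other way. FvH4_6g24680 (chromosome 6, 18714139 to 18715923, plus strand) matches the basic glucanase of peach, a PR-2 enzyme, and was the only one of the 74 called higher in each line. It had 1.45, 1.39 and 1.76 FPKM in line 2, 6.92, 5.66 and 6.25 FPKM in line 1, and 0.842, 0.786 and 1.03 FPKM in the wild type, with no overlap between any groups. Line 1 was 7.08-fold above the wild type (1.95 ± 0.11, limma adjusted p = 4.61e-07). Line 2 was 1.73-fold above it (0.43 ± 0.11, adjusted p = 0.0141), a call that was lost without line 2 replicate 3 (adjusted p = 0.0629, against 0.00708 to 0.0629 over all alternatives). Line 2 lay 4.09-fold below line 1 (-1.52 ± 0.11, adjusted p = 2.77e-06).

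The listed gene before it was another of the 74, on the opposite strand. FvH4_6g24670 ends 4093 bases before FvH4_6g24680, carries the thaumatin domain and matches the same sweet cherry protein as FvH4_6g05880. It had 0.329, 0.441 and 0.317 FPKM in line 2, 2.25, 1.84 and 2.38 FPKM in line 1, and 0.179, 0.238 and 0.318 FPKM in the wild type. Line 1 was 8.80-fold above the wild type (1.34 ± 0.11, limma adjusted p = 9.96e-06) with every library above the other 6, the opposite direction to FvH4_6g05880. This gene entered the test through line 1, so it had to differ. Of the 8 listed genes on each side of FvH4_6g24680, 4 were tested, and in line 1 this neighbour was the only one called higher, while 2 were lower. Over all tested genes 16.5% were higher and 19% lower. Of the 2 lower genes, FvH4_6g24610 reached 1 FPKM only in wild type libraries, so it entered the test through that group and had to differ. Another gene of the cluster, the basic isoform FvH4_6g24640, had 16, 10 and 4 reads in line 2, 0 reads in every line 1 library, and 8, 6 and 12 reads in the wild type. The other basic isoform matches, FvH4_6g37200, FvH4_6g37201 and FvH4_5g06210, reached at most 0.300 FPKM in any library.

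**Figure D4:**
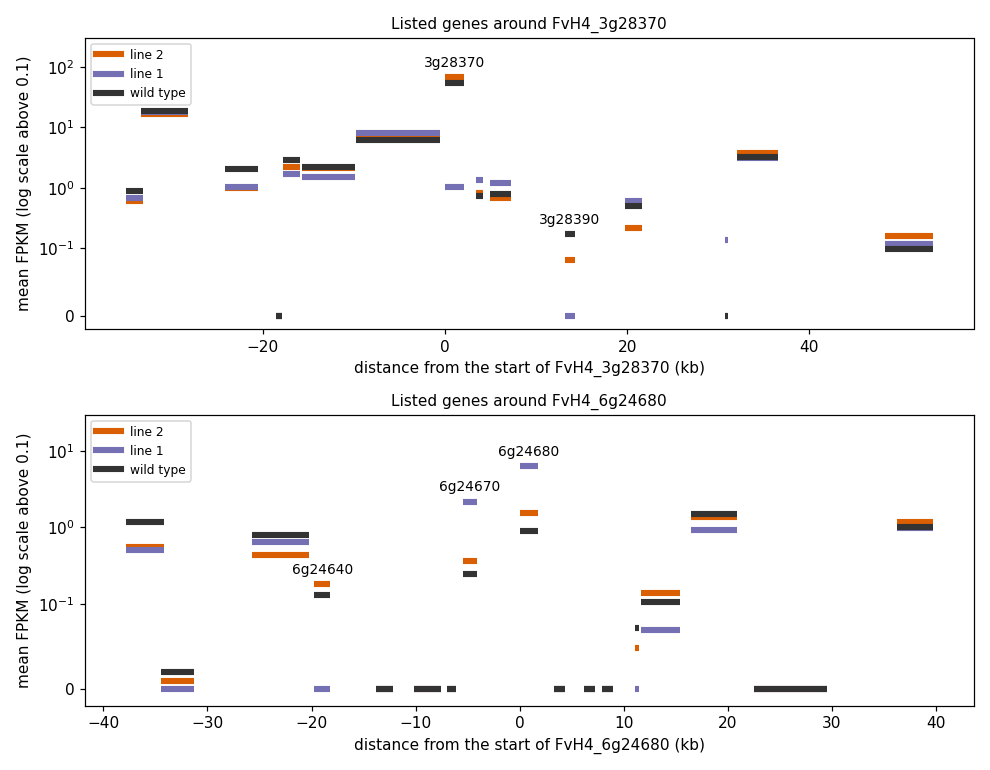
Mean FPKM of each listed gene, drawn to its length, against distance in kb from the start of FvH4_3g28370 (top) and FvH4_6g24680 (bottom), in line 2, line 1 and wild type, on an axis that is logarithmic above 0.1 FPKM. In the top panel FvH4_3g28370 stands at 66.7 FPKM in line 2, 1.04 FPKM in line 1 and 53.3 FPKM in the wild type, and in the bottom panel FvH4_6g24680 and FvH4_6g24670 stand highest in line 1.

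In all, 15 of the 74 lie next to another in the listed gene order, in 7 runs of neighbours. How the authors counted reads that match several copies is not given in the sources used here, so levels within a run may be split between copies.

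Among the other family 17 genes without X8, those named glucanase 14 and glucanase 11 were the most abundant. FvH4_1g02990, a glucanase 14, had 21.8, 18.9 and 18.8 FPKM in line 2, 25.5, 26.6 and 25.1 FPKM in line 1, and 27.4, 25.3 and 21.8 FPKM in the wild type. FvH4_3g24930, also a glucanase 14, had 16.6, 15.8 and 16.9 FPKM in line 2, 21.1, 18.1 and 22.2 FPKM in line 1, and 21.3, 23.9 and 20.4 FPKM in the wild type. For both, each line 2 library lay below all others, and line 1 overlapped the wild type. Against the wild type FvH4_3g24930 was 1.33-fold lower in line 2 (-0.39 ± 0.09, limma adjusted p = 0.00953), a call kept under every alternative. FvH4_1g02990 was 1.25-fold lower (-0.31 ± 0.09, adjusted p = 0.0302), but not without line 2 replicate 2 or 3 or wild type replicate 1 or 2, where adjusted p was 0.0787 to 0.109 (0.00304 to 0.109 over all alternatives).

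FvH4_5g10600, the glucanase 11, had 28.4, 29.3 and 30.8 FPKM in line 2, 42.8, 30.6 and 41.6 FPKM in line 1, and 34.9, 40.0 and 30.4 FPKM in the wild type. The groups overlapped, and it was not called in any comparison. Line 2 against line 1 (-0.35, 95% interval -0.64 to -0.06, limma adjusted p = 0.0712) passed without line 1 replicate 2 (adjusted p = 0.0067) or wild type replicate 3 (adjusted p = 0.0444), within a range of 0.00041 to 0.227 over all alternatives. This gene overlaps FvH4_5g10610 on the opposite strand by 952 bases. That gene averaged 16.2, 17.97 and 13.9 FPKM in line 2, line 1 and wild type, and without a stated strand setting the reads of overlapping genes cannot be told apart.

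FvH4_1g08510 lists family 17 but is named after tomato 12-oxophytodienoate reductase 3, an enzyme of jasmonate synthesis, and family 17 is the only domain listed for it, so its name and its domain disagree. It had 6.78, 7.06 and 6.54 FPKM in line 2, 10.1, 9.68 and 10.7 FPKM in line 1, and 9.09, 7.85 and 10.7 FPKM in the wild type. Every line 2 library lay below all others (against the wild type -0.38 ± 0.10, limma adjusted p = 0.0184). That call was lost without line 2 replicate 1 or 3 (adjusted p = 0.0544 and 0.0667, against 0.00595 to 0.0667 over all alternatives), while line 2 against line 1 (-0.52 ± 0.10, adjusted p = 0.00364) was kept under each. The last gene of this layout, FvH4_3g26540, a glucanase 6 with 3.77 ± 0.615 FPKM in line 2, 3.97 ± 0.848 FPKM in line 1 and 3.05 ± 0.413 FPKM in the wild type, was not called in any comparison.

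Genes with both family 17 and X8, the layout of wall-bound and plasmodesmal glucanases, were the largest class among the tested genes. The highest was FvH4_3g23410, a glucanase 13 on chromosome 3 (16444569 to 16446863, plus strand). It had 73.7, 83.4 and 84.4 FPKM in line 2, 56.7, 44.4 and 64.2 FPKM in line 1, and 69.2, 70.7 and 75.8 FPKM in the wild type. All line 1 libraries were the lowest, and line 2 overlapped the wild type. Line 2 was 1.46-fold above line 1 (0.55 ± 0.12, limma adjusted p = 0.0057). Line 1 was 1.31-fold below the wild type (-0.39 ± 0.12, adjusted p = 0.0269), which was lost without line 1 replicate 1 or 2 or wild type replicate 2 or 3 (adjusted p 0.0504 to 0.0693) and with rescaling to TPM (adjusted p = 0.0753, against 0.00981 to 0.0753 over all alternatives).

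The X8 gene with the largest fall in line 2 was FvH4_3g36150, which matches a wheat glucanase (chromosome 3, 30985217 to 30987762, minus strand). It had 13.3, 15.7 and 13.8 FPKM in line 2, 35.6, 24.0 and 39.0 FPKM in line 1, and 34.3, 37.2 and 31.8 FPKM in the wild type. The line 2 libraries lay below all others, and line 1 overlapped the wild type. Line 2 was 2.41-fold below the wild type (-1.21 ± 0.15, limma adjusted p = 0.000185) and 2.31-fold below line 1 (-1.12 ± 0.15, adjusted p = 0.000305).

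Smaller falls in line 2 were found in 7 more genes of this layout. FvH4_2g30580, a glucanase 5, had 12.9, 12.03 and 13.4 FPKM in line 2, 15.3, 14.95 and 16.0 FPKM in line 1, and 17.9, 17.5 and 16.6 FPKM in the wild type. These groups did not overlap, and line 2 was 1.36-fold below the wild type (-0.41 ± 0.07, limma adjusted p = 0.00186). It overlaps FvH4_2g30570 on the other strand by 258 bases, a gene at 0.606 FPKM over all libraries. FvH4_3g01880, a glucanase 1, had 0.942, 1.16 and 1.15 FPKM in line 2, 1.497, 1.54 and 1.68 FPKM in line 1, and 2.63, 2.25 and 2.36 FPKM in the wild type. It was the only one of the 74 called lower in each line, by -0.71 ± 0.10 in line 2 (limma adjusted p = 0.000398) and by -0.41 ± 0.10 in line 1 (adjusted p = 0.0102), and all groups were apart.

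FvH4_2g18200, the expressed match of Arabidopsis A6, had 1.21, 0.672 and 1.03 FPKM in line 2, 2.04, 2.05 and 2.26 FPKM in line 1, and 1.93, 1.70 and 2.06 FPKM in the wild type. Line 2 was 1.96-fold below the wild type (-0.57 ± 0.12, limma adjusted p = 0.00552) and below every other library. FvH4_1g05390, a glucanase 8, averaged 0.863 ± 0.152 FPKM in line 2, 0.976 ± 0.138 FPKM in line 1 and 1.52 ± 0.479 FPKM in the wild type. Its call in line 2 (-0.42, adjusted p = 0.0451) was lost when any library other than wild type replicate 2 was left out, with adjusted p between 0.0520 and 0.139 (0.0331 to 0.139 over all alternatives).

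The remaining falls in line 2 came with higher values in line 1. FvH4_1g28000, a glucanase 8 (chromosome 1, 19817962 to 19821230, plus strand), had 6.01, 6.72 and 6.45 FPKM in line 2, 11.5, 10.6 and 12.5 FPKM in line 1, and 9.17, 9.45 and 8.54 FPKM in the wild type. It was lower than wild type in line 2 (-0.44 ± 0.09, limma adjusted p = 0.00317) and higher in line 1 (0.32 ± 0.09, adjusted p = 0.0161), with all 3 groups apart. The rise in line 1 was lost without line 1 replicate 3 (adjusted p = 0.0643, against 0.00309 to 0.0643 over all alternatives).

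FvH4_7g22480, a second wheat match (chromosome 7, 17687797 to 17690129, minus strand), had 2.65, 3.10 and 3.54 FPKM in line 2, 7.41, 5.71 and 8.62 FPKM in line 1, and 3.88, 4.81 and 5.01 FPKM in the wild type. The 3 groups did not overlap here either, with line 2 the lowest and line 1 the highest. It rose in line 1 (0.56 ± 0.14, limma adjusted p = 0.0139), a call lost without line 1 replicate 3 (adjusted p = 0.0549, against 0.00308 to 0.0549 over all alternatives). It fell in line 2 (-0.44 ± 0.14, adjusted p = 0.0406), a call lost without line 1 replicate 1, line 2 replicate 1 or 2, or wild type replicate 2 or 3, with adjusted p of 0.0563 to 0.138 (0.0195 to 0.138 over all alternatives). These were the only 2 of the 74 called in opposite directions, and line 2 against line 1 passed for both (-0.76 ± 0.09, adjusted p = 8.02e-05, for FvH4_1g28000 and -1.0005 ± 0.14, adjusted p = 0.000469, for FvH4_7g22480) under every alternative.

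FvH4_2g08690 and FvH4_2g39880, both glucanase 7, had the same order of groups. FvH4_2g08690 had 3.82, 4.30 and 4.08 FPKM in line 2, 8.71, 5.91 and 9.52 FPKM in line 1, and 6.19, 6.64 and 6.20 FPKM in the wild type. It was called lower in line 2 (-0.54 ± 0.14, limma adjusted p = 0.015), which was lost without line 2 replicate 1 (adjusted p = 0.0547, against 0.00105 to 0.0547 over all alternatives). In line 1 it was called higher only without line 1 replicate 2 among single libraries (adjusted p = 0.00527, against 0.143 with all libraries), and that library was the only one of line 1 below the wild type. FvH4_2g39880 had 1.17, 2.08 and 1.55 FPKM in line 2, 4.45, 2.91 and 4.61 FPKM in line 1, and 1.65, 2.43 and 2.22 FPKM in the wild type. It was called higher in line 1 (0.68 ± 0.17, adjusted p = 0.0135), which was lost without line 1 replicate 1 or 3 (adjusted p = 0.0517 and 0.0536, against 0.00331 to 0.0536 over all alternatives).

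FvH4_3g00190, another glucanase 8, averaged 0.653 ± 0.0746 FPKM in line 2, 1.73 ± 0.129 FPKM in line 1 and 1.09 ± 0.309 FPKM in the wild type. Line 2 lay below line 1 by 0.72 ± 0.12 on the log2 scale (limma adjusted p = 0.00148), which was kept under every alternative. Its rise in line 1 (0.39, adjusted p = 0.0323) was lost without line 1 replicate 1, 2 or 3 or wild type replicate 1 or 2 (adjusted p 0.0544 to 0.105, against 0.0125 to 0.105 over all alternatives).

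**Figure D5:**
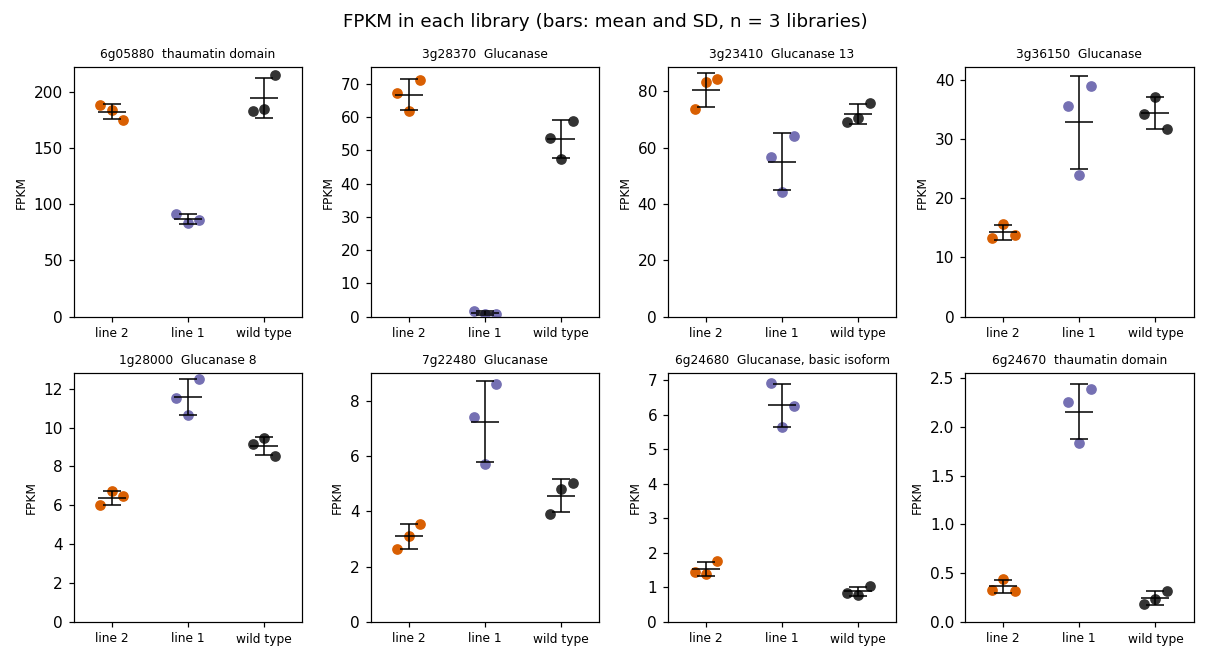
FPKM of 8 of the 74 genes in each library (points), with mean and SD over 3 libraries (bars), for line 2, line 1 and wild type from left to right. FvH4_6g05880, FvH4_3g28370 and FvH4_3g23410 are lowest in line 1, FvH4_3g36150 is lowest in line 2, FvH4_1g28000 and FvH4_7g22480 lie on opposite sides of the wild type in the 2 lines, and FvH4_6g24680 and FvH4_6g24670 are highest in line 1.

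The family 17 genes that match the Arabidopsis glucanases acting at plasmodesmata, named glucanase 4, 3 and 2, were low in these fruits. FvH4_3g00570, also named glucanase 4 but without family 17, was called higher in line 1 and is described below. FvH4_3g45330, a glucanase 4 with family 17 and X8, averaged 1.25 ± 0.171 FPKM in line 2, 1.204 ± 0.129 FPKM in line 1 and 1.499 ± 0.125 FPKM in the wild type. FvH4_6g42190, a glucanase 3, averaged 2.00 ± 0.330 FPKM in line 2, 1.52 ± 0.236 FPKM in line 1 and 2.07 ± 0.254 FPKM in the wild type. Neither was called in any comparison, and the 95% intervals of the differences from the wild type reached from -0.39 to 0.08 in line 2 and from -0.42 to 0.05 in line 1 for FvH4_3g45330. For FvH4_6g42190 they reached from -0.31 to 0.23 in line 2 and from -0.56 to -0.01 in line 1. The glucanase 2 with both domains, FvH4_1g30380, stayed just under the limit for testing, at 0.825 FPKM in line 2, 0.746 FPKM in line 1 and 0.960 FPKM in the wild type. The glucanase 6 FvH4_4g00080 had 9.59, 10.7 and 10.4 FPKM in line 2, 9.73, 9.39 and 11.8 FPKM in line 1, and 11.3, 10.8 and 12.7 FPKM in the wild type, and was not called in any comparison. Line 2 lay just below the wild type and line 1 overlapped it. Also not called was the glucanase 9 FvH4_3g39500, at 1.56 ± 0.324, 2.08 ± 0.0990 and 2.26 ± 0.427 FPKM in line 2, line 1 and wild type. Line 2 against the wild type for FvH4_3g39500 (adjusted p = 0.0656) passed without line 2 replicate 3 (adjusted p = 0.0464) or wild type replicate 2 (adjusted p = 0.0297), within 0.0297 to 0.207 over all alternatives.

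Of the 5 tested genes without family 17, FvH4_6g05880 and FvH4_6g24670 were described above, and the other 3 were called higher in line 1, beside 16.5% of all tested genes. FvH4_3g00570, named glucanase 4 but with an X8 domain only, had 2.06, 2.91 and 0.993 FPKM in line 2, 5.23, 4.27 and 4.80 FPKM in line 1, and 1.79, 1.10 and 1.94 FPKM in the wild type. Line 1 was 2.96-fold above the wild type (1.16 ± 0.22, limma adjusted p = 0.00268), and line 2 overlapped the wild type. FvH4_6g08400, a wheat match with X8 only, had 0.893, 0.531 and 0.880 FPKM in line 2, 1.19, 1.47 and 1.89 FPKM in line 1, and 0.794, 0.817 and 0.483 FPKM in the wild type. It was called higher in line 1 (0.56, limma adjusted p = 0.0132), but it entered the test through line 1 and so had to differ. It overlaps FvH4_6g08410 on the other strand by 843 bases, a gene at 7.45, 5.39 and 7.08 FPKM in line 2, line 1 and wild type. FvH4_6g52380, a short gene with no listed domain, rested on 10 to 15 reads per library in line 2, 13 to 26 in line 1 and 1 to 11 in the wild type. Its call in line 1 (0.96, adjusted p = 0.017) was lost without line 1 replicate 2 (adjusted p = 0.0585, against 0.00996 to 0.0879 over all alternatives).

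Other genes of the callose pathway were followed by lists of descriptions, whose counts stand beside 16.8% higher and 18.1% lower over all tested genes for both lines together. Of 9 tested callose synthases, 3 were higher and 0 lower in both lines together by limma, with a median of 0.35 beside 0.00075 over all tested genes. Without wild type replicate 3 the count was 1 higher and 1 lower, with a median of 0.16. It was 1 higher and 0 lower without line 1 replicate 1 or 3, and without line 2 replicate 1, 2 or 3. Line 1 alone gave 3 higher and 0 lower, beside 16.5% and 19% of all tested genes. Line 2 alone gave 2 higher and 1 lower, beside 15.3% and 15.1%. The most abundant, callose synthase 3 FvH4_3g44290, averaged 55.0 ± 2.60 FPKM in line 2, 62.1 ± 6.64 FPKM in line 1 and 44.7 ± 11.8 FPKM in the wild type, where replicate 3 had 31.1 FPKM and the others 51.3 and 51.7 FPKM. Callose synthase 9 FvH4_3g44320 averaged 37.3 ± 1.83 FPKM in line 2, 37.6 ± 3.70 FPKM in line 1 and 27.3 ± 6.61 FPKM in the wild type. Of 4 tested X8 proteins outside the 74, 1 was higher, the unnamed FvH4_4g21350, at 6.35 ± 0.726 FPKM in line 2, 19.9 ± 3.31 FPKM in line 1 and 7.75 ± 0.859 FPKM in the wild type. Line 1 alone gave 1 higher of these 4 and line 2 alone gave 0. Of 4 tested plasmodesmata-located proteins 1 was higher and 1 lower, the lower being FvH4_4g33800 at 15.8 ± 1.05 FPKM in line 2, 12.5 ± 1.35 FPKM in line 1 and 25.7 ± 3.93 FPKM in the wild type. Line 1 alone gave 1 higher and 1 lower of them, and line 2 alone 0 higher and 1 lower. Beside the same 16.8% and 18.1%, family 1 beta-glucosidases, which act on short glucosides, counted 4 higher and 1 lower of 12, and remorins, membrane proteins found at plasmodesmata, 3 higher and 0 lower of 8. By line, the beta-glucosidases counted 3 higher and 4 lower in line 1, and 5 higher and 1 lower in line 2. Remorins counted 4 higher and 0 lower in line 1, and 3 higher and 1 lower in line 2. The shares over all tested genes for each line are those given above.

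Markers of other fruit tissues were followed beside these results. Over all tested genes, 15.3% were higher and 15.1% lower in line 2 than in the wild type, and 16.5% and 19% in line 1. For line 2 against line 1 the shares were 15.4% higher and 12.2% lower. Seed storage and oleosin genes, which mark the achenes on the fruit surface, summed to 201 to 266 FPKM in line 2, 317 to 587 FPKM in line 1 and 377 to 701 FPKM in the wild type. Of the 23 listed, 11 were tested, of which 10 were lower and 1 higher in line 2 than in the wild type, 6 were lower and 1 higher in line 2 than in line 1, and 5 of the 23 were at 0 in all libraries. In line 1, 2 were lower and 1 higher than in the wild type. Lower glucanases in line 2 came with lower achene markers, and the part of achenes in the result was not tested. Sieve element markers, where callose is also laid down, summed to 6.60 to 7.93 FPKM in line 2, 8.71 to 9.23 FPKM in line 1 and 9.30 to 9.93 FPKM in the wild type, with 3 of 13 at 0 in all libraries. The 3 tested members went both ways, with 1 higher and 1 lower in line 2 and 2 higher and 1 lower in line 1 than in the wild type, and their part was not tested either. The xylem list summed to 74.3 to 76.5 FPKM in line 2, 83.6 to 85.6 FPKM in line 1 and 68.0 to 72.2 FPKM in the wild type, most of it from a nucleosome assembly protein that its word pattern also caught, and 3 of its 7 genes were at 0. Of its 2 tested genes, 1 was higher and 0 lower in line 2 by limma, and 1 was higher and 1 lower in line 1, than in the wild type. Pollen and anther markers were near 0, at 0.0420 to 0.123 FPKM in line 2, 0.978 to 1.32 FPKM in line 1 and 0.297 to 0.347 FPKM in the wild type, with 0 of 5 tested.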

How the data were processed

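Per the labels' protocols, poly(A) RNA was reverse transcribed with random hexamers and sequenced on an Illumina platform. The authors deposited FPKM values for 34777 genes in 9 libraries. Tools named in the submitters' processing notes were featureCounts 2.0.6, StringTie 2.2.3, HISAT2 2.2.1 and fastp, with no role given. Genome build, strand setting and the treatment of reads with several matches are not given in the sources used here. Positions follow the deposited table, and overlapping antisense genes cannot be separated.

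FPKM times gene length gave whole read numbers (100% of values within 0.02), used here for depth. Values of 2 reads (8623) outnumbered values of 1 (3011) and of 3 (1683), so reads are not independent molecules.

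Genes had to reach 1 FPKM in 3 or more libraries (15890 did). Their log2(FPKM + 1) values, pseudocount 1, were fitted by group with limma 3.58.1 (R 4.3.3), the prior variance following the mean. Contrasts were line 2 against line 1, each line against the wild type, and the mean of both lines against it. Tests were two-sided, with Benjamini-Hochberg adjusted p under 0.05. On simulated data for both lines against the wild type, with 50 genes planted per fold among 15890, 43 were recovered at 1.5-fold and 50 at 2-fold. Changes were planted only in genes above a minimum mean FPKM and read number, with the same spread in every library. Recovery was therefore not measured for genes near the limit of testing, or with libraries that stand apart. No gene of the 74 matched the RefSeq table (0 of 74), so no sequence is shown.

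The 74 genes, the gene lists and the tests were chosen with earlier results of these data known. Per-library values are given for the 12 genes with the highest mean and for up to 8 more per contrast by adjusted p. Genes named from other lists, and those too low to test, were partly chosen after their values were seen. Alternatives were a pseudocount of 0.1, dropping the filter, requiring a mean of 5 FPKM, median-of-ratios and TPM scaling, a replicate block, voom on recovered reads, no trend, and each library left out.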

Additional observations from a re-analysis of the deposited data

Results flagged for a closer look

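The effect in line 2 differed from that in line 1 for 19 of the 28 tested genes, by the contrast of line 2 against line 1 in limma (adjusted p under 0.05). Line 2 lay above line 1 for FvH4_3g28370 (5.09), FvH4_6g05880 (1.06) and FvH4_3g23410 (0.55), in log2(FPKM + 1). Line 2 lay below line 1 by more than 1 on that scale for FvH4_6g24680 (-1.52), FvH4_6g24670 (-1.21), FvH4_3g36150 (-1.12) and FvH4_7g22480 (-1.0005). It lay below by a smaller amount for FvH4_3g00570 (-0.998), FvH4_2g39880 (-0.94), FvH4_2g08690 (-0.81), FvH4_1g28000 (-0.76), FvH4_3g00190 (-0.72), FvH4_2g18200 (-0.67), FvH4_1g08510 (-0.52) and FvH4_6g08400 (-0.51). The smallest differences were those of FvH4_1g02990 (-0.36), FvH4_3g01880 (-0.30), FvH4_3g24930 (-0.29) and FvH4_2g30580 (-0.25).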

How the results depend on the processing

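No direction of a called gene turned under any alternative. Of the calls, 7 of 12 for both lines together, 7 of 14 for line 1, 6 of 12 for line 2 and 14 of 19 for line 2 against line 1 were kept under every alternative. With a mean of at least 5 FPKM, 12 genes were tested and 5, 4, 7 and 10 were called for both lines, line 1, line 2 and line 2 against line 1. Over all genes tested at that limit, 37.6%, 37.2%, 32% and 28.8% were called in the same order. Fewer genes were tested, and the split changed as well. It was 0 higher and 5 lower for both lines and 1 higher and 3 lower for line 1. For line 2 it was 0 higher and 7 lower, and for line 2 against line 1 it was 3 higher and 7 lower. Leaving out each library in turn gave 8 to 11, 7 to 14, 8 to 11 and 14 to 20 calls in the same order. The shares called over all tested genes were then 27.4% to 36.7%, 25.9% to 33.6%, 20.7% to 33.7% and 20.2% to 33.8%. The replicate block gave 10, 12, 12 and 15, beside 29.4%, 29.4%, 25.3% and 23.9% of all tested genes. Same-numbered libraries did not deviate together (correlations -0.26 to 0.16), so the numbers were not taken to pair the samples. Without a filter, 60 genes were tested and 10, 20, 12 and 26 called, beside 20.5%, 21.7%, 18.5% and 18.5% of all genes tested that way. Counting only genes with family 17, an alternative chosen after seeing the data, left 9 calls of 23 in line 1, 5 higher and 4 lower. Over all tested genes 35.5% were called there. The sums over family 17 genes were 291, 268 and 324 FPKM in line 2, line 1 and wild type. The line 2 sum was 473 FPKM with median-of-ratios scaling and 471 FPKM with TPM. With a library left out, sums were 477.5 to 479.4 FPKM in line 2, 354 to 387 FPKM in line 1 and 511 to 528 FPKM in the wild type. Of the 46 genes too low to test, 38 had under 100 reads over all libraries, and the highest had 1429.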
